A study of Rattus norvegicus with 8 samples.

Results

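Transcripts of 52 Rab GTPase genes were followed in the axons and in the cell bodies of rat embryonic hippocampal neurons whose axons alone were exposed for 24 h to vehicle or to soluble oligomeric Abeta(1-42), an amyloid peptide. The members are the rows of the deposited tables whose symbol is Rab, a number, and at most 1 letter and 1 digit, which gave 52 of 26405 Ensembl genes in each table. They were grouped by Rab number, with a membrane that the product marks: 4 Rab3 genes of synaptic vesicles, 7 genes of early and recycling endosomes (Rab4, Rab5 and Rab11), 1 of late endosomes (Rab7a), 2 of the Golgi (Rab6a and Rab6b) and 38 others. The others include genes that act at the same membranes, such as Rab2a and Rab31, so no group stands for every Rab of its organelle. Rab1, also of the Golgi, was not analysed here under its own symbol. An identifier that shares the Entrez number of Rab1a is named LOC100363782 in the tables and was not counted as a member. In the authors' deposited table its axonal log2 fold change was 0.32 (SE 1.04), on a mean of 6.45 normalized counts.

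Cultures were 10 to 14 days old and stood in microfluidic chambers, which keep axons in a space apart from the cell bodies. The 8 samples form 4 groups of 2, namely axons with Abeta, axons with vehicle control, soma with neurites with Abeta, and soma with neurites with vehicle control. All were embryonic rat cells. Nothing in the labels says that duplicates came from separate cultures, so each p-value rests on the spread of these duplicates alone, possibly a technical one. The deposited files are 1 comparison of treatments per compartment and do not name the numerator, so every sign is as deposited. A positive side and a negative side are spoken of, and neither is named as Abeta or vehicle. For means under 1000 the whole reads of every library could be solved for, and these libraries are named by side and number because they cannot be matched to a sample title. Within each side library 1 is the deeper one, so equal numbers on the sides are not known to be a pair.

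Rab proteins are small GTPases that act as membrane switches. A guanine nucleotide exchange factor loads a Rab with GTP on its own organelle, the GTP-bound form recruits effectors that tether, move or fuse vesicles, and a GTPase-activating protein ends the cycle. Geranylgeranyl tails hold Rabs in the membrane, and GDI proteins extract and recycle them. In axons, Rab3 proteins tie synaptic vesicles to the release site, Rab5 and Rab7 act in endocytosis and retrograde traffic, and Rab11 returns receptors to the surface.

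The axonal table held reads of 23879 genes and the somatic table of 18995. The reads recovered in genes with a mean under 1000 ran from 231854 to 425420 in the axonal libraries and from 263117 to 3661660 in the somatic ones. Size factors were 1.32 and 1.28 in positive-side libraries and 0.952 and 0.740 in negative-side ones, so the sides also differ in depth. Of 8 neuronal markers with axonal reads, 5 had an adjusted p and 0 were called, beside 23.0% of all genes with an adjusted p. The rest could not be called, and none was at 0 in every axonal library. Their summed normalized counts were 581 and 673 on the positive side, with 378 and 782 on the other. Most astrocyte markers lay on the positive axonal side. Of 10, 8 had an adjusted p and 6 were called, all positive, beside 8.78% of all genes with an adjusted p. Slc1a2 (-0.82) and Sparcl1 (-0.71) lay below 0, and none of the 10 was at 0 in every library. Their summed normalized counts were 3602 and 3949 against 652 and 1159. The largest parts were Gfap (1228 and 1530 against 158 and 375) and Vim (1286 and 1264 against 225 and 192). Of 7 fibroblast markers, 3 had an adjusted p. The collagen genes Col1a1 and Col1a2 were called on the positive side and the other 5 lay below 0 (median of the 7, -0.15). Their sums, 392 and 808 against 173 and 196, are mostly those of Col1a1 (221 and 497 against 80.9 and 52.7) and Col1a2 (93.0 and 238 against 8.40 and 35.1). The 7 microglial and 6 oligodendrocyte markers had no adjusted p in axons and so could not be called. None was at 0 in every library, and 1 of the 7 microglial markers lay above 0 (median -1.07), with microglial sums of 64.2 and 27.4 against 96.6 and 165 and oligodendrocyte sums of 51.4 and 40.7 against 52.5 and 21.6. Of 6 cell body and nucleus markers with axonal reads, 1 had an adjusted p and 0 were called. Map2 and Rbfox3 among them were also counted as neuronal. None was at 0 in every axonal library, and 5 lay above 0 (median 0.48). Their sums were 187 and 218 against 120 and 188. Rbfox3 had an axonal mean of 17.7 and Prox1 of 18.2 normalized counts. Whether RNA of cell bodies reached the axonal samples was not tested. The 5473 genes detected in axons and not in soma made up 2.80% and 1.25% of recovered reads on the positive side, against 5.59% and 4.62% on the other. In a bulk sample, fewer cells of a type and less RNA per cell cannot be told apart. The part of these differences in the Rab values below was not tested.

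In axons, Rab6a and Rab31 were the called members, both higher on the positive side, by about the same factor. Rab18 lay furthest to that side but was too low in abundance to be given an adjusted p. The paralog of Rab6a, Rab6b, had a value near 0 that turned negative (-0.27) relative to genes well expressed in soma. The authors gave an adjusted p only where the mean normalized count reached 44.8, which held for 6 members (Rab5b, Rab6a, Rab6b, Rab7a, Rab10 and Rab31). Of these 6, 2 passed the authors' adjusted p under 0.05 (DESeq2). Over all genes with an adjusted p, 23.0% were called, 8.78% on the positive side, and with 6 testable members no excess over that background can be read.

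Rab6a, which marks the Golgi and the vesicles that leave it (ENSRNOG00000018176), had 106 and 141 normalized counts on the positive axonal side, set against 25.2 and 44.6 on the negative one. Both positive-side libraries were above both others. In the authors' deposited table its log2 fold change was 1.70 (SE 0.54, adjusted p = 0.0138, DESeq2), a 3.25-fold difference. Rab6b, the form of Rab6 that is enriched in neurons (ENSRNOG00000009198), had 109 and 139 against 83.0 and 136 normalized counts, and its sides overlapped. Its log2 fold change in the authors' deposited table was 0.17 (SE 0.49, adjusted p = 0.838, DESeq2). The difference between the paralogs was not tested, and reads that fit both could have been split or dropped in counting.

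Rab31, which carries cargo between the trans-Golgi network and endosomes (ENSRNOG00000042189), had 77.9 and 153 normalized counts on the positive side, against 32.6 and 36.5 on the negative. The sides did not overlap, and positive-side library 2 stood well above the others. Its log2 fold change in the authors' deposited table was 1.61 (SE 0.56, adjusted p = 0.0215, DESeq2), or 3.05-fold. Without positive-side library 2, the log2 ratio of the recovered sides fell from 1.71 to 1.15.

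Both calls depend on the set of genes over which p-values are adjusted. Taking in all 8032 genes whose mean reached 10, the adjusted p was 0.0740 for Rab6a and 0.111 for Rab31, and over every gene with reads it was 0.211 and 0.302 (Benjamini-Hochberg). Genes well expressed in soma (somatic mean of 100 or more) were shifted by a median of 0.44 on the axonal log2 scale, and relative to that shift Rab6a stood at 1.26 (adjusted p = 0.0876) and Rab31 at 1.17 (adjusted p = 0.142).

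The sequences around the start of Rab6a, Rab31 and Rab6b, from 250 bases before to 50 after it, are shown because the first 2 were the called members and the third is the uncalled paralog. They come from RefSeq on build GRCr8, 5′ to 3′ on the gene's strand, and 43 of the 52 members had such an entry. Capitals mark matches, on either strand, to 7 motifs, and no match overlapped another here. The motifs were the GC box, spelled GGGCGG, the CCAAT box, spelled CCAAT, the TATA box, spelled TATAAA, the E-box, spelled CACGTG, the cAMP response element, spelled TGACGTCA, part of an ATF4 element, spelled TGATGNAA, and a sterol element, spelled TCACNCCAC. Rab6a lies on the plus strand (chr1:164369783-164370082), Rab31 on the minus strand (chr9:112828043-112828342) and Rab6b on the plus strand (chr8:112573973-112574272).
Rab6a: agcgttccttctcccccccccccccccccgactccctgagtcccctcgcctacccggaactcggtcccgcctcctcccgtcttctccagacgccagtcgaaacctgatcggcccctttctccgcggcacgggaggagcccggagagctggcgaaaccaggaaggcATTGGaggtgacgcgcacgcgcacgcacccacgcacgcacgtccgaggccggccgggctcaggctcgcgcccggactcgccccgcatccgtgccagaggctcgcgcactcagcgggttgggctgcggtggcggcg
Rab31: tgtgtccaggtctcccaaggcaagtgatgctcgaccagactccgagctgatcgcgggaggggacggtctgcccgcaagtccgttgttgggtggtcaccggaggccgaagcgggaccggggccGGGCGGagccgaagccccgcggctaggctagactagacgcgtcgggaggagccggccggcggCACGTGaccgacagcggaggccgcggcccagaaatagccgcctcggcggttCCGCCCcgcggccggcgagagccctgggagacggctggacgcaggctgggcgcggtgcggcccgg
Rab6b: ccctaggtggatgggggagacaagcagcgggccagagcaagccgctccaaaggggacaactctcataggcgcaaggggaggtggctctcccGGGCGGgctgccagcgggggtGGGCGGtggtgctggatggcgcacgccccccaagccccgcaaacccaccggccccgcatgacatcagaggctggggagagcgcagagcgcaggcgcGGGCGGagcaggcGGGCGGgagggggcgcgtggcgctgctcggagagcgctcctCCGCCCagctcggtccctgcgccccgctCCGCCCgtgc

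All 3 windows are rich in G and C, at 72.7% for Rab6a, 73.7% for Rab31 and 74.7% for Rab6b, against a median of 63.0% over the 43 members and 52.3% over the 27457 windows of the same length in the table. Rab6a held a single CCAAT box, on the other strand. Rab31 held 2 GC boxes and 1 E-box, and Rab6b held 6 GC boxes. A GC box was found in 76.7% of the members' windows and 34.9% of all, a CCAAT box in 39.5% and 37.7%, and an E-box in 9.30% (4 of 43: Rab5a, Rab20, Rab21 and Rab31) and 6.65%. The TATA box, in 14.3% of all windows, and the ATF4 (3.82%) and sterol (1.13%) elements were in 0 of the members' windows, while the cAMP response element was in that of Rab25 alone (1.91% of all). Rab6a and Rab31, the called genes, shared no motif that was searched for, and Rab31 shared the GC box with Rab6b.

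**Figure D1:**
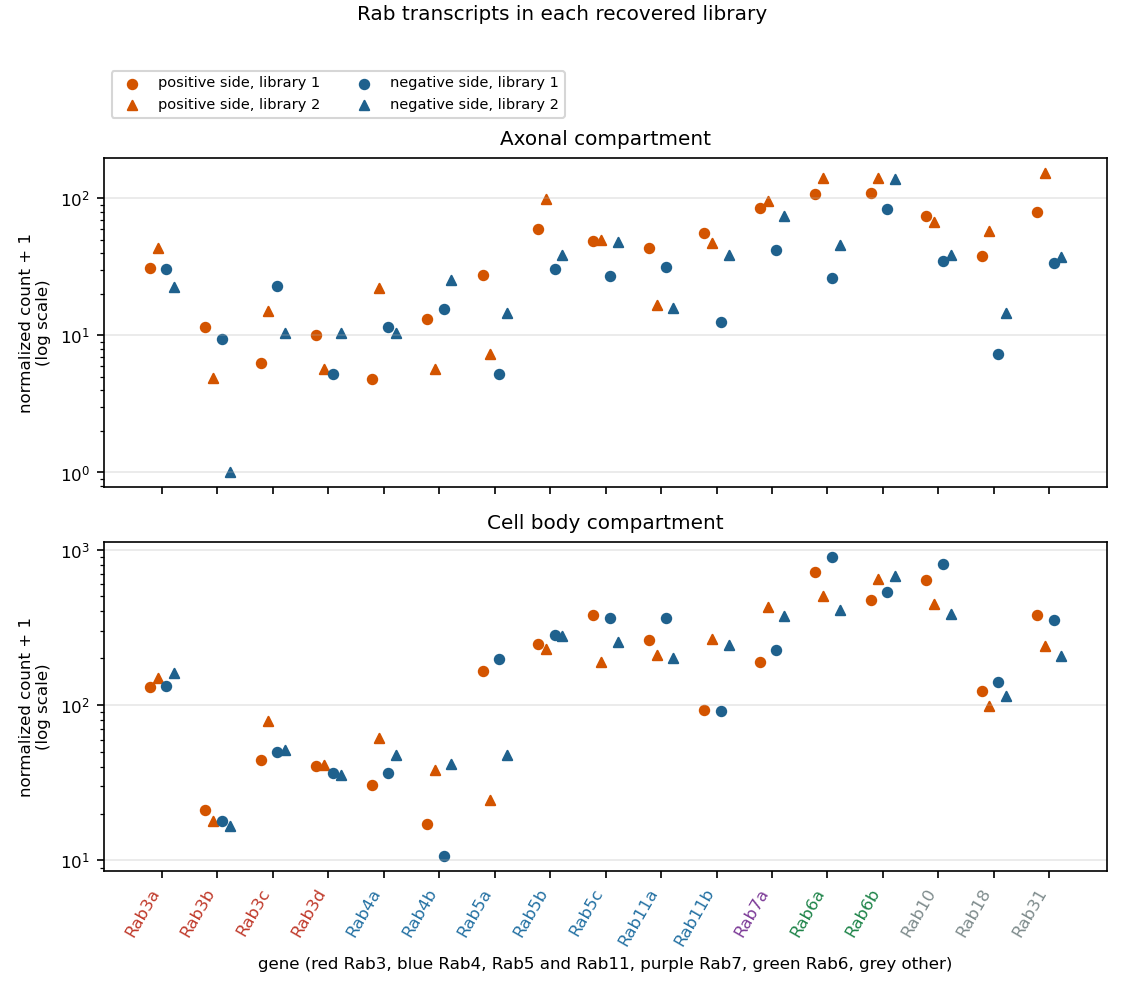
Normalized counts (plus 1, log scale) of the 14 Rab genes of the 4 organelle groups and of Rab10, Rab18 and Rab31 in each recovered library of the axonal (top) and cell body (bottom) compartment, orange for the positive and blue for the negative side, circles for library 1 and triangles for library 2. Rab6a, Rab18 and Rab31 have both orange points above both blue ones in axons, as do Rab3a, Rab5b, Rab5c, Rab7a, Rab10 and Rab11b. This also holds for 30.6% of all genes whose axonal mean reached 10. In the lower panel Rab5a, Rab11b and Rab7a split by depth (library 1 is the deep one on each side), not by side.

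Early and recycling endosome genes lay mostly above 0 in axons without a call. Of the 7, 6 had a positive and 1 a negative log2 fold change, with a median of 0.36, and 0 were called, but an adjusted p existed for Rab5b alone. Rab5b, one of the 3 Rab5 forms that direct fusion of early endosomes (ENSRNOG00000006130), had 59.0 and 97.8 normalized counts in positive-side libraries and 29.4 and 37.8 in negative-side ones. Its sides did not overlap, and in the authors' deposited table the log2 fold change was 1.12 (SE 0.58, adjusted p = 0.171, DESeq2). Rab5c had 47.6 and 48.5 against 26.3 and 47.3, a separation of under 1 count at the nearest pair, and a log2 fold change of 0.36 (SE 0.62) in the authors' deposited table. Rab5a had 26.5 and 6.26 against 4.20 and 13.5, so its sides overlapped. Its log2 fold change was 0.68 (SE 0.92) in the authors' deposited table.

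Rab11b, of the recycling endosome and enriched in brain, had 54.4 and 46.2 normalized counts on the positive side, with 11.6 and 37.8 on the other, without overlap. Rab11a, the widely expressed form, had 42.3 and 15.7 against 30.5 and 14.9, and on each side the deeper library was the higher one. Their log2 fold changes were 0.92 (SE 0.68) and 0.30 (SE 0.75) in the authors' deposited table. Rab4a and Rab4b, which act in rapid recycling from early endosomes, stood at 0.24 (SE 0.93) and -0.96 (SE 0.86) there. Rab4b was the 1 gene of the 14 with both positive-side libraries (12.1 and 4.70 normalized counts) below both negative-side ones (14.7 and 24.3), while Rab4a, with 3.78 and 21.1 against 10.5 and 9.45, overlapped.

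The late endosome was represented by Rab7a, which moves late endosomes and signalling endosomes toward the cell body (ENSRNOG00000012247). It had 84.7 and 94.7 normalized counts on the positive side, against 41.0 and 72.9 on the negative. The sides did not overlap, but in the authors' deposited table the log2 fold change of 0.61 (SE 0.54, adjusted p = 0.464, DESeq2) was not called. Relative to the 0.44 shift of genes well expressed in soma it stood at 0.18.

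Synaptic vesicle Rabs had the smallest median of the 4 organelle groups in axons, and none was called. Rab3a, the main Rab of synaptic vesicles in brain, had 30.2 and 42.3 normalized counts against 29.4 and 21.6, a separation of less than 1 count at the nearest pair, and its log2 fold change was 0.44 (SE 0.68) in the authors' deposited table. Rab3c had 5.29 and 14.1 against 22.1 and 9.45 and a log2 fold change of -0.55 (SE 0.89) in the authors' deposited table. Its sides overlapped, with the highest and the third highest library on the negative side. Rab3b had 10.6 and 3.91 against 8.40 and 0 normalized counts and stood at 0.45 (SE 1.05) in the authors' deposited table. Rab3d had 9.07 and 4.70 against 4.20 and 9.45 and stood at 0.02 (SE 0.99) there. None of the 4 was abundant enough in axons for an adjusted p. Summed over the 4 genes, the axonal libraries held 55.2 and 65.0 normalized counts in positive-side libraries and 64.1 and 40.5 in negative-side ones, which overlap. The 7 endosomal genes summed to 246 and 240 against 127 and 185, and the 2 Rab6 genes to 215 and 280 against 108 and 181, without overlap. Medians were 0.23 for Rab3, 0.36 for early and recycling endosomes, 0.61 for Rab7a and 0.94 for Rab6, and these differences between groups of 1 to 7 genes from the same libraries were not tested.

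Of the other 38 genes, Rab31 was called. Rab18, a Rab of the endoplasmic reticulum and lipid droplets (ENSRNOG00000018972), had 37.0 and 57.1 normalized counts against 6.30 and 13.5. The sides were well apart, and its log2 fold change was 1.95 (SE 0.73, unadjusted p = 0.00739, DESeq2) in the authors' deposited table, with no adjusted p. Taken over the 8032 genes whose mean reached 10, its adjusted p was 0.173 (Benjamini-Hochberg). Rab10, which directs membrane to the growing axon, had 73.3 and 66.5 against 33.6 and 37.8 normalized counts, also without overlap. Its log2 fold change was 0.89 (SE 0.57, adjusted p = 0.293, DESeq2) in the authors' deposited table. Rab2a, of traffic between the endoplasmic reticulum and Golgi, stood at 0.28 (SE 0.80), Rab33a, found on axonal vesicles in neurons, at -0.57 (SE 0.85) and Rab36 at 0.12 (SE 0.91) in the authors' deposited table.

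The remaining 32 members had axonal means of 1.21 to 32.3 normalized counts and log2 fold changes of -1.42 to 1.27, 17 above and 15 below 0, with no unadjusted p below 0.135 in the authors' deposited table. In 12 of them at least 1 axonal library had no read, and no library held more than 53 reads of any of them. Over all 52 members, 3 had an unadjusted p under 0.05 (Rab6a, Rab18 and Rab31, all positive), beside 4.45% of all genes and 1.86% on the positive side. Among genes whose mean reached 10, as it did for these 3, the shares were 9.25% and 4.78%.

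As a family, the Rab genes lay slightly to the positive side in axons as deposited, a direction that moved with abundance in soma. Of 52 members, 34 had a log2 fold change above 0 and 18 below, with a median of 0.26, while 43.7% of all genes lay above 0 and their median was -0.13. The direction moved with abundance in soma: of the 2683 genes whose somatic mean reached 100, 76.6% lay above 0, with a median of 0.44. The 14 members of that abundance all lay above 0 with a median of 0.65, 10 of them above 0.44, and the other 38 had a median of 0.03, with 20 above 0. After subtracting 0.44 from all 52 the family median was -0.18, but 38 of them are below that somatic abundance, so unlike sets are compared. Sides did not overlap for 22 of the 52 members, 15 positive and 7 negative, beside 37.0% of all genes, 17.1% positive and 20% (4736 of 23698) negative (49.5%, 30.6% and 18.9% where the mean reached 10). Summed over the 52 genes, the libraries held 1088 and 1266 normalized counts on the positive side, with 688 and 875 on the other.

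**Figure D2:**
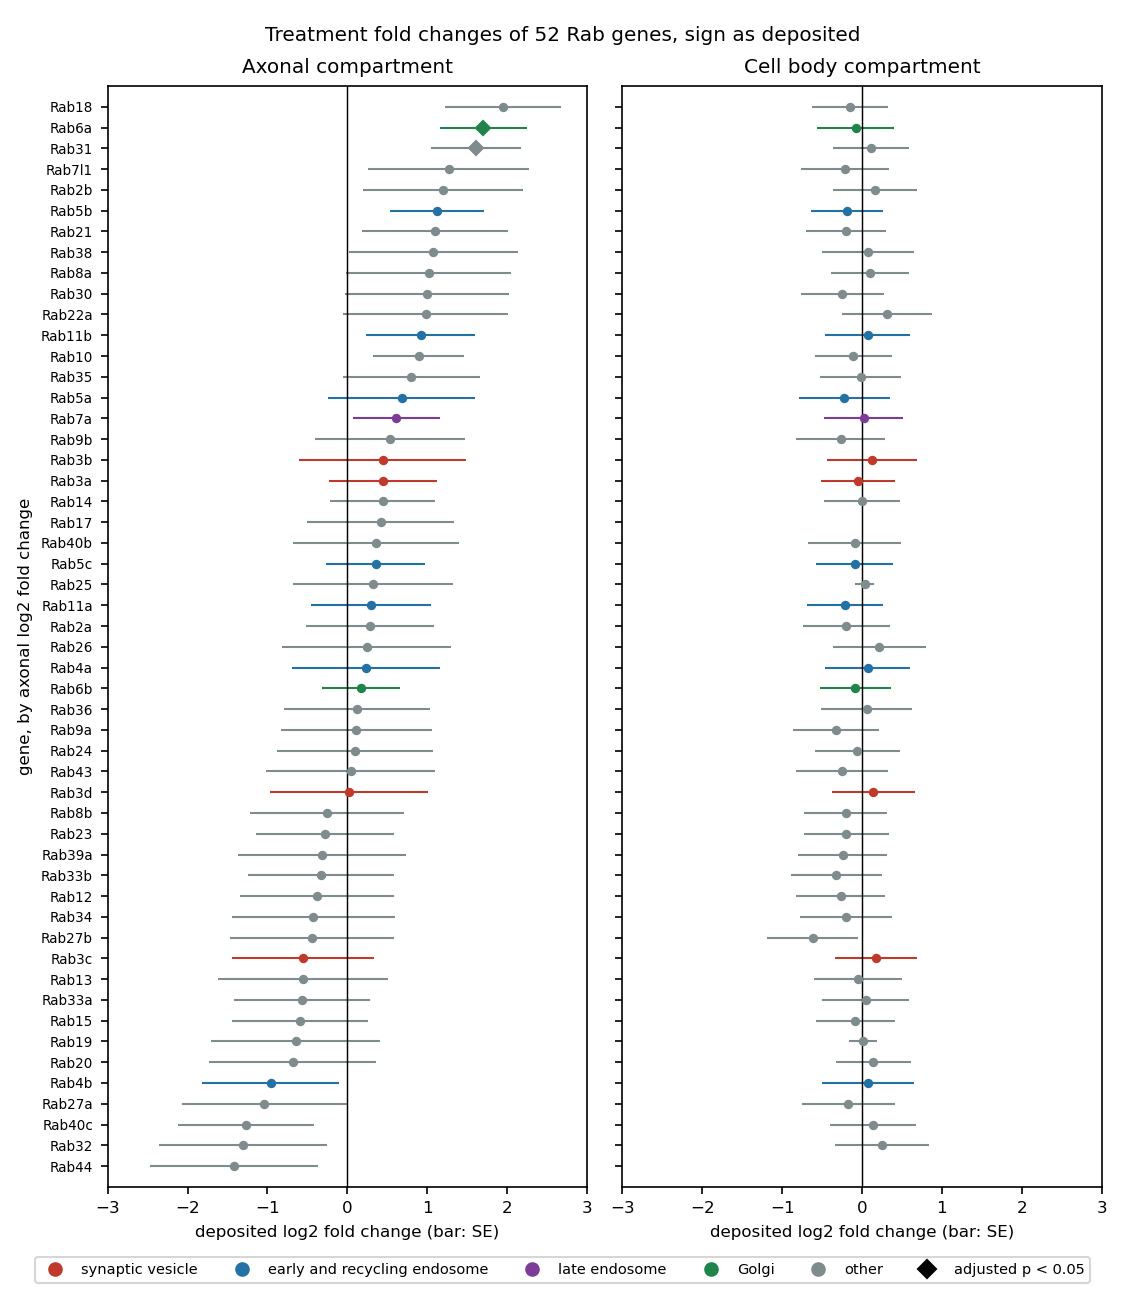
Deposited log2 fold changes (points, bars are 1 SE) of the 52 Rab genes in axons (left) and cell bodies (right), ordered by the axonal value and coloured by organelle group, with diamonds for an adjusted p under 0.05. Rab6a at 1.70 and Rab31 at 1.61 are the diamonds, and the cell body values lie between -0.62 and 0.31.

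In cell bodies no Rab transcript was called. Of the 50 members with somatic reads, 0 passed the authors' adjusted p under 0.05 (DESeq2), 0 had an unadjusted p under 0.05, and the smallest unadjusted p was 0.280. Over all genes 0% were called, and 0.0105% had an unadjusted p under 0.05. Rab17 and Rab44 had no somatic read. The median log2 fold change was -0.07 over the members and -0.02 over all genes, with 21 members above 0 and 29 below (45.7% of all genes lay above 0). Rab6a stood at -0.08 (SE 0.48), Rab31 at 0.11 (SE 0.48) and Rab18 at -0.15 (SE 0.48) in the authors' deposited table. A deposited value can be smaller in size than the log2 ratio of the recovered sides. In soma the deposited value and that ratio were 0.18 and 0.28 for Rab3c, and -0.08 and -0.10 for Rab6a. For Rab27b, with a somatic mean of 6.64, they were -0.62 and -1.74. In axons they were 1.70 and 1.79 for Rab6a, and -1.42 and -2.04 for the scarce Rab44. The range of deposited somatic values is therefore narrower than that of the recovered ratios.

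Somatic sides did not overlap for 7 members, 3 positive and 4 negative, beside 15.4% of all genes, 7.55% positive and 7.85% negative (15.7% where the mean reached 10). Rab3b, Rab3d and Rab22a were the positive ones, and Rab5b, Rab21, Rab27b and Rab39a the negative ones. Rab3d had 39.7 and 40.4 against 35.3 and 34.4 normalized counts. Rab5b lay the other way from axons, with 245 and 229 somatic normalized counts on the positive side, against 280 and 278 on the negative. Its axonal minus somatic difference in log2 fold change was 1.32 (SE 0.74, unadjusted p = 0.0739 by a two-sided z test, adjusted p = 1.00).

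The cell body libraries differed far more by depth than by side. Each side held a deep library (size factors 2.97 and 3.74) and a shallow one (0.297 and 0.320). Of the 42 members whose somatic mean reached 10, 33 (78.6%) had both deep libraries on one side of both shallow ones, 20 higher in the deep and 13 in the shallow pair, and this held for 70.8% of the 11049 genes of that abundance. The log2 ratio of deep to shallow had an SD over members of 1.07 for the positive side and 1.02 for the other, while the log2 ratio of sides varied less, with an SD of 0.26 in the deep pair and 0.52 in the shallow pair. Across the 42 members, as a description, the deep to shallow ratios of both sides gave r = 0.84 (Pearson) and rho = 0.81 (Spearman), against 0.74 and 0.73 across all 11049 genes. All points come from the same 4 libraries, and genes are not independent replicates.

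Members of the early and recycling endosome group lay on opposite sides of 0 in this respect, with Rab5b near 0. Rab5a had 164 and 197 normalized counts in the deep libraries and 23.6 and 46.9 in the shallow ones, whereas Rab5b had 245 and 280 against 229 and 278. Rab11b had 91.9 and 90.3 in the deep against 266 and 244 in the shallow libraries, and Rab11a ran the other way with 262 and 364 against 209 and 200. Rab4b stood at 16.2 and 9.62 against 37.0 and 40.7, and Rab7a, of late endosomes, at 189 and 224 against 424 and 375. Rab2a, Rab9b and Rab40b were also at least 2-fold higher in the deep library of each side, and Rab27a and Rab36 in the shallow one. In all, 4 members (9.52%) were so in each direction, near the 8.32% and 10.8% of all genes. Depth and any other difference between these libraries cannot be told apart. Within the deep and the shallow pair, the log2 ratio of sides was -0.33 and 0.30 for Rab6a, 0.11 and 0.21 for Rab31, and -0.19 and -0.20 for Rab18. Whether the authors' model had a term for this pairing is not given here, and no paired test was run, so the absence of somatic calls rests on the p-values as deposited.

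**Figure D3:**
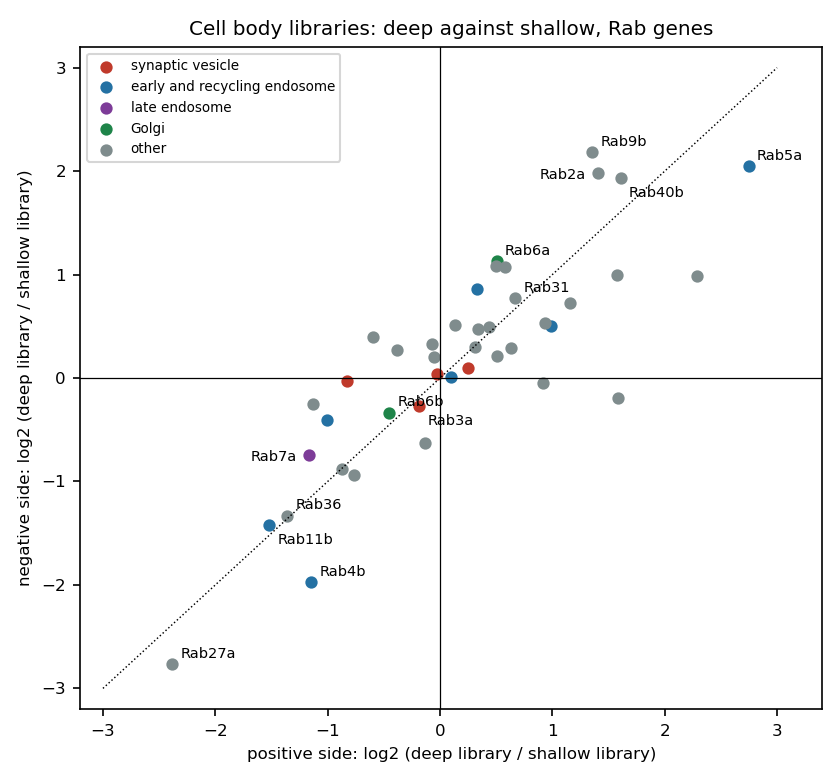
Log2 ratio of the deep to the shallow cell body library on the positive side (horizontal) and the negative side (vertical) for the 42 Rab genes whose somatic mean reached 10 normalized counts, coloured by organelle group, with the line of equality. Points follow that line, with Rab27a at -2.38 and -2.77 in the lower left and Rab5a at 2.75 and 2.05 in the upper right.

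Whether the treatment difference itself differed between axons and cell bodies was asked by subtracting the deposited log2 fold changes, taking the sign to mean the same in both tables. Of 50 members tested, 0 passed (two-sided z test, Benjamini-Hochberg over 18406 genes, 0.0326% of which passed), and 3 had an unadjusted p under 0.05, beside 2.60% of all genes (1.42% with a positive difference). These were Rab6a, whose axonal value exceeded the somatic one by 1.78 (SE 0.73, unadjusted p = 0.0144, z test), Rab18 with 2.11 (SE 0.87, unadjusted p = 0.0155, z test) and Rab31 with 1.49 (SE 0.74, unadjusted p = 0.0423, z test). Each had an adjusted p of 1.00. The axonal call of Rab6a and Rab31 is therefore not shown to be particular to axons by this test. It takes the deposited log2 fold changes, which can be smaller in size than the recovered ratios, and the deposited SEs. It has no term for the deep and shallow pairs in soma.

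Rab transcripts took a smaller share of the axonal than of the somatic means, and so did the median gene well expressed in soma. The tables were normalized separately, so levels across them were set on the summed means outside the 20 most abundant identifiers of either table, as a share scaled the way CPM is (ppm), and no test was made. Over the 50 members with reads in both, the median log2 ratio of axonal to somatic ppm (pseudocount 1) was -1.74, with 47 below 0, where 66.3% of all genes lay below 0 with a median of -0.82. The share also moved with abundance in soma: genes whose somatic mean reached 100 had a median of -2.02. Relative to that the median of the 50 members was 0.29, but only 14 members reach that somatic mean, so unlike sets are compared. Those 14 ran from -3.12 (Rab10) to -1.52 (Rab14), around -2.02. The 3 members above 0 (Rab19, Rab20 and Rab25) had axonal means of 2.82, 4.35 and 2.00 normalized counts.

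Among the 27 members with a mean of at least 10 in both tables, all lay below 0, as did 89.9% of all such genes, and 20 lay below the median of those genes, -1.41. The lowest were Rab10 at -3.12 (54.4 axonal and 479 somatic ppm), Rab11a at -2.99 (26.6 and 218) and Rab2a at -2.80 (23.2 and 168). The highest were Rab4b at -0.57 (14.4 and 21.8), Rab33a at -0.67 (14.0 and 23.0) and Rab36 at -0.79 (11.6 and 20.7). The 3 at either end are not set apart from each other, since the axonal libraries of Rab11a alone ranged from 14.9 to 42.3 normalized counts. Rab6a lay at -2.70, Rab6b at -2.02, Rab3a at -1.89, Rab3c at -1.75 and Rab7a at -1.75, where the median of the 27 was -1.89.

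**Figure D4:**
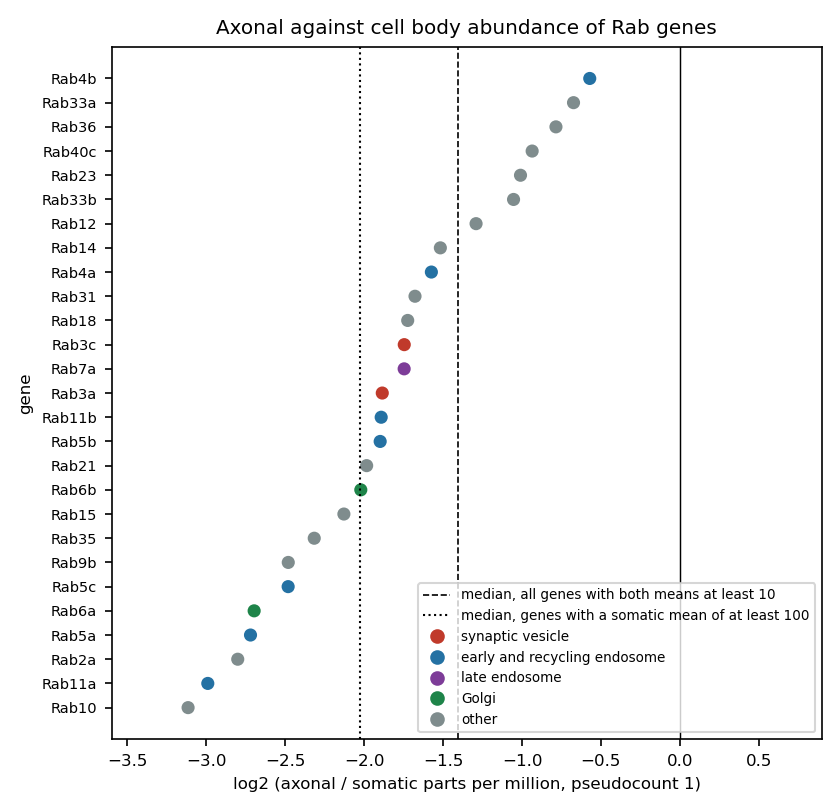
Log2 ratio of axonal to somatic ppm (pseudocount 1) of the 27 Rab genes with a mean of at least 10 normalized counts in both tables, coloured by organelle group. All points lie left of 0, from Rab10 at -3.12 to Rab4b at -0.57, around the medians of all such genes (dashed, -1.41) and of genes whose somatic mean reached 100 (dotted, -2.02).

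Regulators and effectors of Rabs showed no call in either compartment. Lists of 100 genes were drawn up for prenylation and GDI proteins, exchange factors, GTPase-activating proteins and effectors, and 94 symbols matched, giving 98 identifiers with axonal reads. Of these, 7 had an adjusted p in axons and 0 were called, beside 23.0% of all genes, and 0 were called in soma or for the difference between compartments. Gdi2, which extracts GDP-bound Rabs from membranes, had 61.98 and 103 normalized counts against 24.2 and 66.2, and its sides overlapped. Its axonal log2 fold change was 0.80 (SE 0.61, adjusted p = 0.394, DESeq2) in the authors' deposited table. The 8 identifiers of 7 prenylation and GDI genes had a median of 0.75, with 7 above 0. Exchange factors (23 identifiers) had a median of 0.09, GTPase-activating proteins (21) of 0.19 and effectors (46) of -0.03.

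An unadjusted p under 0.05 was reached in axons by 1 listed gene on each side, named after their values were seen. Trappc10, a subunit of a tethering complex that activates Rabs at the Golgi, had 31.7 and 72.8 against 19.96 and 14.9 normalized counts and a log2 fold change of 1.39 (SE 0.69, unadjusted p = 0.0433, DESeq2) in the authors' deposited table. Rph3a (rabphilin, an effector of Rab3) had 8.31 and 6.26 against 13.7 and 55.4, where negative-side library 2 alone was high, and stood at -1.83 (SE 0.81, unadjusted p = 0.0244, DESeq2) there.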

How the data were processed

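RNA was purified from the axonal and cell body compartments, and sequencing libraries came from a TruSeq kit, per the labels' protocols. The authors used Trim Galore, TopHat2, SAMtools and DESeq2, per the submitters' processing notes. The build, the gene models and how reads were counted are not given here. If reads of similar paralogs were split or dropped in counting, values of Rab pairs are uncertain. Per the file headers, each of the 2 deposited tables gives a mean over 4 libraries (a signal, from counts the authors scaled by size factors), the deposited log2 fold change and its standard error, a Wald score deposited by the authors, and the deposited p-value with its adjusted p-value. No column per library was at hand, so the authors' adjusted p under 0.05 is the main test.

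Deposited means carry 15 significant digits and are sums of 4 whole read counts times a unit fixed per library. Genes with 1 read give the units and, by the sign of their fold change, the side. Of means under 1000, 100% had exactly 1 solution in both tables. Shifted decoy values had a solution in 0% of cases for means under 100, and in 0% (axons) and 0.333% (soma) for means of 100 to 500. For means of 500 to 1000 they had one in 5.13% (axons) and 4.11% (soma). The somatic reads of Rab6a, Rab6b and Rab10 and the axonal reads of Gfap and Vim are therefore slightly less certain. Recovered libraries entered no test. The z test and the recovery were checked on simulated data. The differences simulated for the z test were larger than any seen in the members, so that check does not cover differences of their size. Scripts used Python 3.11.15, numpy 2.4.6, pandas 2.3.3 and scipy 1.17.1.

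Named are the 14 genes of the 4 organelle groups, other members with an axonal adjusted p or any unadjusted p under 0.05, the 3 highest and 3 lowest in axonal over somatic abundance, and called regulators. No regulator was called, and Gdi2, Trappc10 and Rph3a are named outside this rule. The members and lists were chosen with earlier results of these data known.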

Additional observations from a re-analysis of the deposited data

How the results depend on the processing

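The count of 2 called axonal members became 0 with adjustment over genes whose mean reached 10, 0 over every gene with reads, and 0 after subtracting the median of genes whose somatic mean reached 100. The first 2 alternatives test more genes by construction. The count of 0 in soma and for the difference between compartments stayed 0 in each alternative run. The median axonal log2 fold change of members, 0.26, became -0.18 after that subtraction, which was made from members of any somatic abundance. The 14 members whose somatic mean reached 100 had a median of 0.65, above the 0.44 subtracted. The median recovered ratio of members without each library in turn ranged from 0.13 to 0.43. The somatic median, -0.07, became -0.0089 after its own subtraction and ranged from -0.22 to 0.0651 without each library. The median axonal over somatic abundance, -1.74, became -1.04 on the summed means of all identifiers. Relative to genes whose somatic mean reached 100 it became 0.29, so its direction rests on the scaling. Only 14 members reach that somatic mean, so this last value compares unlike sets. Rab6b, at 0.17 in axons, turned to -0.27 after the subtraction. The cause of the changes under subtraction and scaling was not tested. Of the alternative values of the 6 members with an axonal adjusted p, 6 lost the call (all of Rab6a and Rab31), 1 reversed and 11 kept direction and side of the threshold. The 2 of Rab18, which has no adjusted p as deposited, kept direction and were not called. Without each library in turn, the recovered log2 ratio ranged from 1.45 to 2.25 for Rab6a, from 1.15 to 2.11 for Rab31 and from 1.73 to 2.72 for Rab18. For Rab6b it was 0.18 with all 4 libraries, -0.14 without negative-side library 1 and 0.57 without negative-side library 2. For Rab7a it was 0.65, and 0.29 and 1.11 without the same libraries. For Rab5b it was 1.20, and 0.79 without positive-side library 2. No paired analysis was possible because the tables hold no columns that carry the replicate numbers, and recovered libraries cannot be matched to them. The pairing of somatic libraries by depth was seen in the data and a fit with it was not run. Leaving out a library gives no new p, since recovered libraries entered no test. Depth limits the axonal values: 25 of 52 members had a mean under 10 normalized counts and 6 had an adjusted p.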
